A study of Rattus norvegicus with 10 samples.

Results

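The data describe genes of heme breakdown and iron handling in the nasal epithelium of rats given N,N-dimethyl-p-toluidine (DMPT). The rule listed 10 genes: Hmox1, Blvra, Blvrb, Fth1, Ftl1, Tfrc, Slc40a1, Slc11a2, Aco1 and Cp. Their probe sets were taken from the array wherever the platform annotation gave that gene as the single symbol. This found 8 of the 10 genes, on 14 probe sets, among 14217 genes and 31042 probe sets on the array. The ferritin heavy chain gene Fth1 and the ferritin light chain gene Ftl1 each lie on 1 probe set that the annotation also assigns to related loci, with 2 symbols on the first and 5 on the second. No value is therefore given for either ferritin gene.

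The rats were males of the F344/N strain, aged 5 to 6 weeks when dosing began. The DMPT group (n = 5) received 120 mg/kg/day of DMPT, an aromatic amine that accelerates the setting of acrylic cements, in corn oil by gavage on 5 consecutive days. The vehicle group (n = 5) received corn oil alone. Transitional epithelium of the nasal cavity was cut out by laser capture microdissection, its RNA was amplified, and each array came from a separately numbered animal. Animals were housed in pairs of unknown composition, so likeness between cage mates could not be modelled. The arrays were treated as independent, which could not be checked.

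Heme oxygenase splits heme into biliverdin, carbon monoxide and iron, and biliverdin reductases turn biliverdin into bilirubin. The freed iron is stored in ferritin or leaves the cell through ferroportin, the product of Slc40a1, after which ferroxidases such as ceruloplasmin oxidise it for loading onto transferrin. Iron enters through the transferrin receptor and is moved out of endosomes by the divalent metal transporter, the product of Slc11a2. Iron regulatory proteins, of which Aco1 encodes one, bind hairpins in the messenger RNAs of several of these genes when cell iron is low, and the transcription factor NRF2 is known to induce heme oxygenase, ferritin and ferroportin.

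All 8 measured genes passed the test, 6 of them higher and 2 lower after DMPT. The importer gene Tfrc rose 2.63-fold and the exporter gene Slc40a1 rose 2.48-fold. The heme oxygenase gene Hmox1 rose 1.92-fold, Blvrb 1.66-fold, Slc11a2 1.57-fold and Aco1 1.39-fold. The ceruloplasmin gene Cp fell 4.40-fold and the biliverdin reductase gene Blvra fell 2.19-fold. In the same fit, 13.9% of all genes passed, 7.13% higher and 6.77% lower. Over probe sets, 9 of the 14 were higher, 4 lower and 1 did not pass, where the shares higher and lower among all probe sets were 5.37% and 5.74% (11.1% together). The median log2 difference (DMPT minus vehicle) was 0.69 over the 8 genes and -0.0052 over all genes. The groups did not overlap for Blvra, Blvrb, Tfrc, Slc40a1, Aco1 and Cp, and they overlapped for Hmox1 and Slc11a2. Among all genes, the share whose groups did not overlap was also 13.9%, and among all probe sets 11.0%. Here a gene passes when its p from limma, after Benjamini-Hochberg adjustment across the 31042 probe sets, is below 0.05, and each gene is represented by its probe set with the highest mean. Values after ± are standard errors of this fit unless marked SD. Each capture holds many cells, so fewer cells of a type and less RNA per cell cannot be told apart.

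The RefSeq table of assembly GRCr8 held promoter sequence for 7 of the 10 genes, in 8 windows, the gene Slc11a2 having more than 1. It held none for Hmox1, Fth1 or Ftl1, so these genes were not searched for motifs. The 250 bases before the start site are printed for Blvra and Blvrb, because these 2 biliverdin reductase genes moved in opposite directions, and for Tfrc and Cp, because they had the largest rise and the largest fall of the 8 genes. Each is written 5′ to 3′ on the strand of the gene, and capitals mark every match to the motifs named after the sequences.
Blvra promoter, chr3:134802660-134802909, plus strand: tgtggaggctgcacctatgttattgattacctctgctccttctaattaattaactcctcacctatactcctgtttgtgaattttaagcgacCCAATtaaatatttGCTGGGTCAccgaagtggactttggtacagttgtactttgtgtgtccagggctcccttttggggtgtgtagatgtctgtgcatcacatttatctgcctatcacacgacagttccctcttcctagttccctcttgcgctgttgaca
Blvrb promoter, chr1:91866008-91866257, plus strand: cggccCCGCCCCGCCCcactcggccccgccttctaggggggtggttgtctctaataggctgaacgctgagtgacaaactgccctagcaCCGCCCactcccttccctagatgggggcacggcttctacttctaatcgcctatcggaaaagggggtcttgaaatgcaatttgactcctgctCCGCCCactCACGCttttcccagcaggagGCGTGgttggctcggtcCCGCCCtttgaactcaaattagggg
Tfrc promoter, chr11:81690319-81690568, minus strand: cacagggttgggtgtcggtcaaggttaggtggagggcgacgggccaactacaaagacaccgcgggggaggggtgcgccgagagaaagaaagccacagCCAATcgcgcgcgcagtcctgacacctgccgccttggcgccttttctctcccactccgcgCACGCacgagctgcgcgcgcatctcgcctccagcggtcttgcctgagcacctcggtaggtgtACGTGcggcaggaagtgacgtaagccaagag
Cp promoter, chr2:104368420-104368669, plus strand: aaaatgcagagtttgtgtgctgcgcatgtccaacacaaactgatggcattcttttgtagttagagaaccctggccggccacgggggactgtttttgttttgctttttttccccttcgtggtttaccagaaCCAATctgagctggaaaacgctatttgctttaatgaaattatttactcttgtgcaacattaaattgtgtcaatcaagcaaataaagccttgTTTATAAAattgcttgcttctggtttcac
The motifs were searched on both strands. The core of the antioxidant response element, TGACNNNGC, was found in 1 of the 8 windows, that of Blvra, whose RNA fell, and in 10.1% of the 33469 promoter windows in the table. That match lies 145 to 137 bases upstream on the opposite strand. Hmox1 and the ferritin genes had no window to search. The hypoxia-inducible factor core ACGTG was found in 1 of the 8 windows, that of Tfrc, 31 to 27 bases upstream, and in 16.6% of all windows. Its other form, GCGTG, was found in 4 of the 8 windows (Blvrb, Tfrc, Aco1 and Slc11a2) and in 25.9% of all windows. The GC box GGGCGG was found in 4 of the 8, those of Blvrb, Slc40a1, Aco1 and Slc11a2, and in 30.5% of all windows. The Blvrb window holds 5 matches to it, of which 1 pair overlaps by a base. The CCAAT box CCAAT was found in 4 of the 8 (Blvra, Tfrc, Cp and Slc11a2) and in 34.0% of all. The TATA box TATAAA was found in the Cp window alone among the 8, as 1 overlapping pair between 29 and 22 bases upstream, and in 12.9% of all. A match describes these letters and is not a measured binding site. Bases farther from the start site were not searched, so a window without a match does not show that the gene lacks the motif. The windows of Blvra and Cp begin inside the span that RefSeq gives for the gene, since they sit at a start site further downstream.

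**Figure D1:**
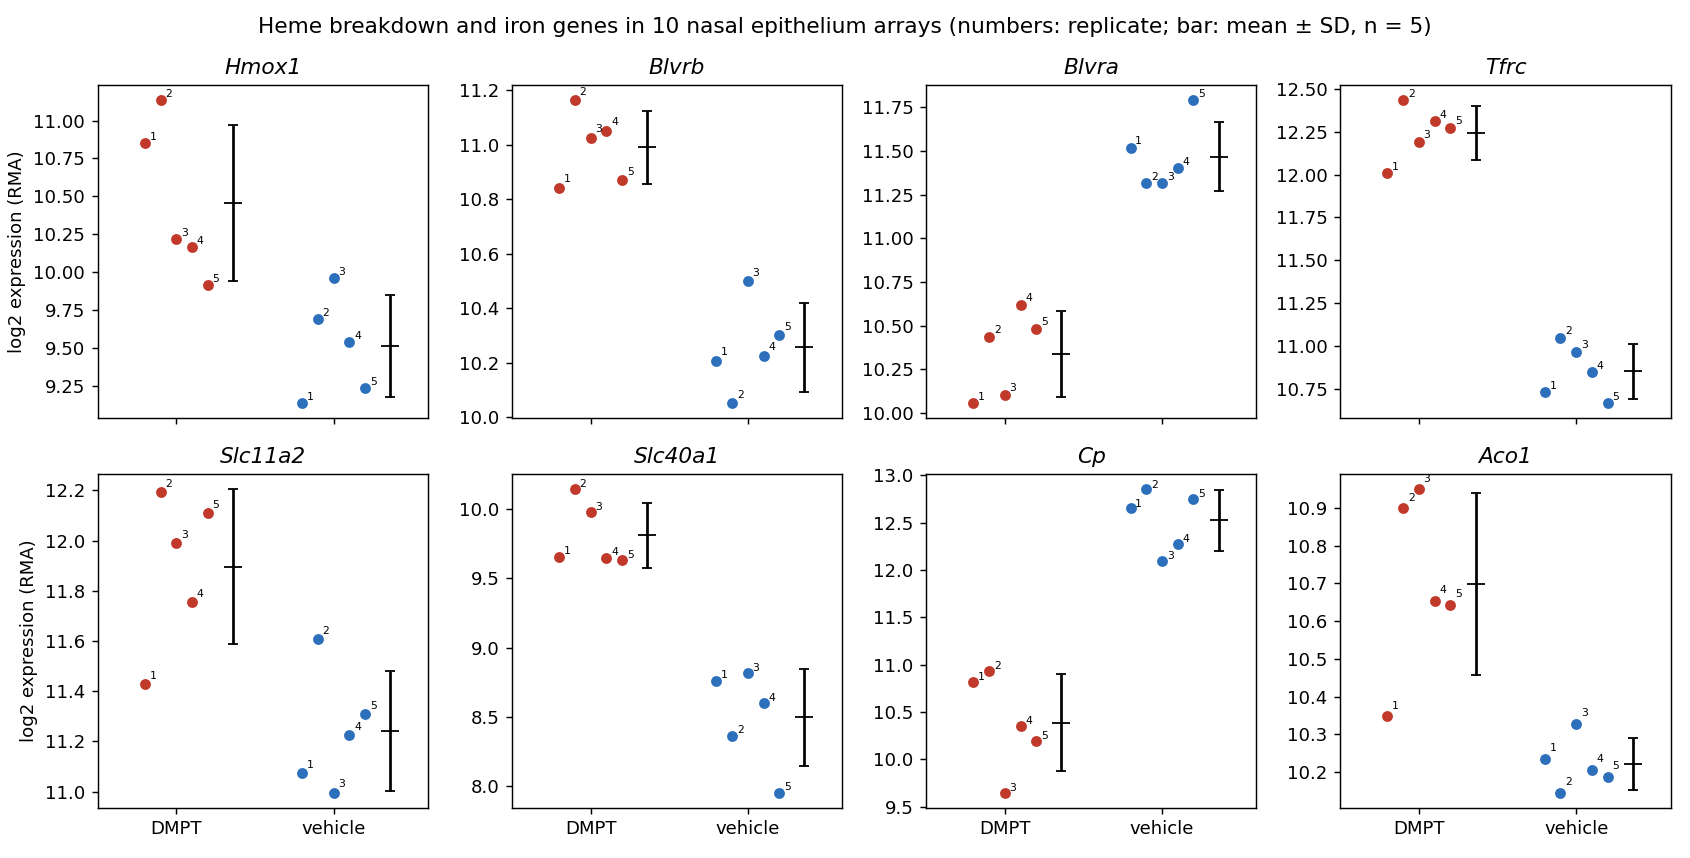
Log2 expression (vertical axes, RMA values, each panel with its own range) of the 8 measured genes in 5 DMPT arrays and 5 vehicle arrays. Numbers beside the points are replicate numbers, and the bar gives the mean ± SD (n = 5). The groups are separate in 6 panels and overlap for Hmox1 and Slc11a2.

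Heme is opened by Hmox1, the inducible heme oxygenase (chr19:13452365-13479823, GRCr8). Its log2 values were 10.85, 11.13, 10.22, 10.16 and 9.92 in DMPT replicates 1 to 5, against 9.14, 9.69, 9.96, 9.54 and 9.24 in vehicle replicates 1 to 5. DMPT replicates 1 and 2 stood above all other arrays, and DMPT replicate 5 lay below vehicle replicate 3. The means were 10.46 ± 0.51 after DMPT and 9.51 ± 0.34 with vehicle (SD, n = 5 each). The difference was 0.94 ± 0.24 log2 units, with a 95% confidence interval from 0.42 to 1.46 (limma, adjusted p = 0.0261). The call was lost without DMPT replicate 1 or without vehicle replicate 1, 4 or 5, where the adjusted p was 0.0604, 0.0610, 0.0522 and 0.0592, in that order. The constitutive heme oxygenase gene Hmox2 had means of 10.55 ± 0.072 after DMPT and 10.57 ± 0.13 with vehicle (SD, n = 5 each). Its difference was -0.024, with a 95% interval from -0.22 to 0.17, and it did not pass. That sign was positive with the arrays centred on their medians and without vehicle replicate 1.

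Blvra and Blvrb encode biliverdin reductases A and B, of which the second also acts as a flavin reductase. The arrays measure RNA and do not show which forms of biliverdin either enzyme reduces. For Blvra (chr3:134793397-134819367) the log2 values were 10.06, 10.44, 10.10, 10.62 and 10.48 in DMPT replicates 1 to 5, against 11.52, 11.31, 11.31, 11.40 and 11.79 in vehicle replicates 1 to 5. Every DMPT array was below every vehicle array, and the difference was -1.13 ± 0.14 log2 units (limma, adjusted p = 0.000424). For Blvrb (chr1:91866258-91883921) the log2 values were 10.84, 11.16, 11.02, 11.05 and 10.87 in DMPT replicates 1 to 5, against 10.21, 10.05, 10.50, 10.23 and 10.30 in vehicle replicates 1 to 5. Every DMPT array was above every vehicle array, and the difference was 0.73 ± 0.10 (limma, adjusted p = 0.00115). Both calls held without each array in turn, with Blvra between -1.20 and -1.05 and Blvrb between 0.68 and 0.79. The 95% intervals ran from -1.43 to -0.83 for Blvra and from 0.51 to 0.96 for Blvrb.

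Of the genes of iron uptake, the RNA of Tfrc and Slc11a2 was measured, and uptake itself was not. The transferrin receptor gene Tfrc (chr11:81668478-81690318) had log2 values of 12.01, 12.43, 12.19, 12.31 and 12.27 in DMPT replicates 1 to 5, against 10.73, 11.05, 10.97, 10.85 and 10.67 in vehicle replicates 1 to 5. The gap between the groups was wider than the range of either. The difference was 1.39 ± 0.11 log2 units (limma, adjusted p = 2.83e-05), the smallest adjusted p of the 8 genes. A second probe set of Tfrc ranged from 9.71 to 10.34 after DMPT, against 7.46 to 8.50 with vehicle, and rose by 2.00 ± 0.20 (adjusted p = 0.000106). The 2 probe sets differed in their change by -0.61 log2 units, brighter minus dimmer, which did not pass (two-sided exact permutation p = 0.0714, 0.190 after adjustment over 8 such pairs).

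The divalent metal transporter gene Slc11a2 (chr7:133381878-133429921) had log2 values of 11.43, 12.19, 11.99, 11.75 and 12.11 in DMPT replicates 1 to 5, against 11.07, 11.61, 11.00, 11.23 and 11.31 in vehicle replicates 1 to 5. DMPT replicate 1 lay below vehicle replicate 2, and the other DMPT arrays lay above all vehicle arrays. The difference was 0.65 ± 0.16 log2 units (limma, adjusted p = 0.0231). The call was lost without DMPT replicate 2, 3 or 5 or vehicle replicate 1 or 3, with adjusted p from 0.0503 to 0.0594. A second probe set of Slc11a2 had means of 9.33 ± 0.25 after DMPT and 9.14 ± 0.24 with vehicle (SD, n = 5 each), and did not pass. Its difference was 0.19, with a 95% interval from -0.13 to 0.51 (limma, adjusted p = 0.470). The changes of the 2 probe sets differed by 0.46 log2 units, which did not pass (two-sided exact permutation p = 0.198, 0.397 adjusted over the 8 pairs). With the mean of both probe sets standing for the gene, the difference was 0.42 log2 units and passed (adjusted p = 0.0126). Slc11a2 has splice forms with and without an iron-responsive hairpin, and the files do not say which form either probe set reads.

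Iron leaves the cell through ferroportin, the product of Slc40a1 (chr9:55525457-55633463). Its log2 values were 9.65, 10.14, 9.98, 9.65 and 9.63 in DMPT replicates 1 to 5, against 8.76, 8.36, 8.81, 8.60 and 7.95 in vehicle replicates 1 to 5. Every DMPT array was above every vehicle array, and the difference was 1.31 ± 0.17 log2 units (limma, adjusted p = 0.000676). The other 2 probe sets of Slc40a1 rose by 1.37 ± 0.21 and 1.49 ± 0.21, and their groups did not overlap either. The changes of the 3 probe sets differed by between -0.18 and -0.052 log2 units, brighter minus dimmer, and none of these differences passed (two-sided exact permutation p from 0.405 to 0.841, from 0.648 to 0.841 adjusted over the 8 pairs).

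Ceruloplasmin, the copper ferroxidase encoded by Cp (chr2:104368336-104427119), is a plasma protein that glands and epithelia can also make. Its log2 values were 10.82, 10.93, 9.65, 10.35 and 10.20 in DMPT replicates 1 to 5, against 12.65, 12.85, 12.10, 12.28 and 12.75 in vehicle replicates 1 to 5. The highest DMPT array was below the lowest vehicle array, and the replicates within each group were spread more widely than those of Tfrc. The difference was -2.14 ± 0.24 log2 units, with a 95% interval from -2.65 to -1.62 (limma, adjusted p = 0.000232). The other 2 probe sets of Cp fell by 1.74 ± 0.20 and 1.70 ± 0.15, also without overlap. The brightest probe set fell by 0.44 log2 units more than the dimmest, which did not pass after adjustment (two-sided exact permutation p = 0.00794, the smallest possible, and 0.0635 adjusted over the 8 pairs). The membrane-bound ferroxidase gene Heph, a paralog of Cp, had means of 10.74 ± 0.13 after DMPT and 10.71 ± 0.15 with vehicle (SD, n = 5 each) and did not pass, with a difference of 0.029 that was negative without DMPT replicate 3 or vehicle replicate 5.

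Aco1 (chr5:60055895-60111920) encodes the cytosolic aconitase that becomes iron regulatory protein when it loses its iron-sulfur cluster. Its log2 values were 10.35, 10.90, 10.95, 10.65 and 10.64 in DMPT replicates 1 to 5, against 10.24, 10.15, 10.33, 10.21 and 10.19 in vehicle replicates 1 to 5. DMPT replicate 1 exceeded the highest vehicle array by little, and the vehicle arrays lay close together. The difference was 0.48 ± 0.12 log2 units (limma, adjusted p = 0.0216), the smallest of the 8 genes. The call was lost without DMPT replicate 2 or 3, with adjusted p of 0.0535 and 0.0582. Ireb2, which encodes the other iron regulatory protein, had means of 10.01 ± 0.18 after DMPT and 9.81 ± 0.40 with vehicle (SD, n = 5 each) and did not pass. Its difference was 0.20, with a 95% interval from -0.19 to 0.59, and it was 0.025 without vehicle replicate 2. Adjusted for the RNA quality ratio it was -0.065. Fbxl5, the iron sensor that marks Ireb2 for degradation, had a difference of -0.19 (95% interval from -0.41 to 0.032) and did not pass.

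**Figure D2:**
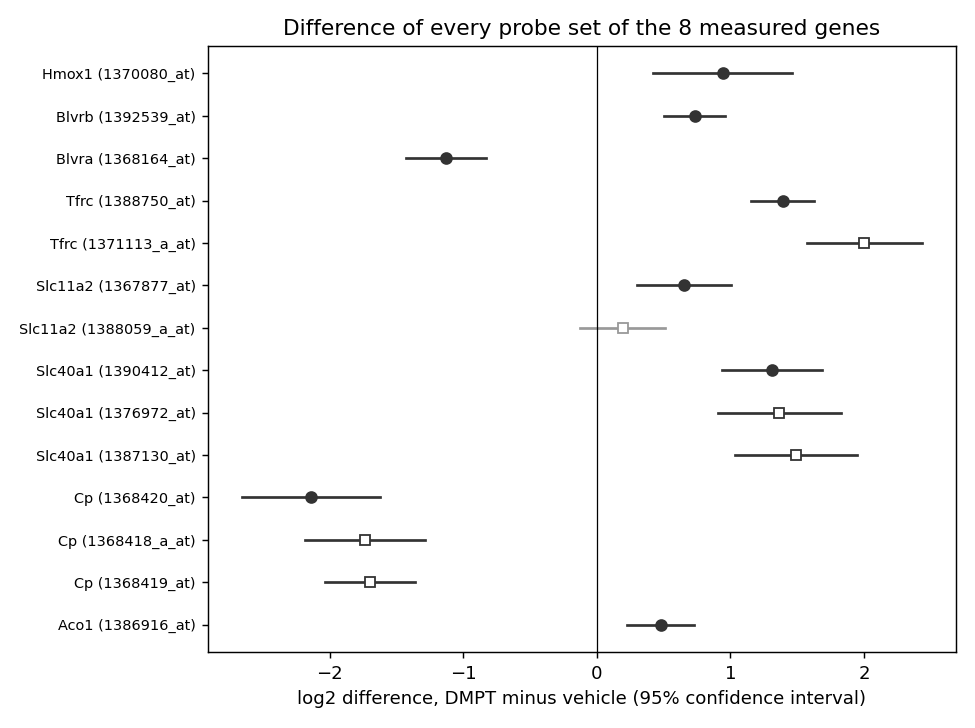
Log2 difference, DMPT minus vehicle (horizontal axis), with its 95% confidence interval for each of the 14 probe sets. Filled circles are the probe sets that represent a gene, open squares are the others, and grey marks the one that did not pass. Probe sets of the same gene lie on the same side of 0.

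**Figure D3:**
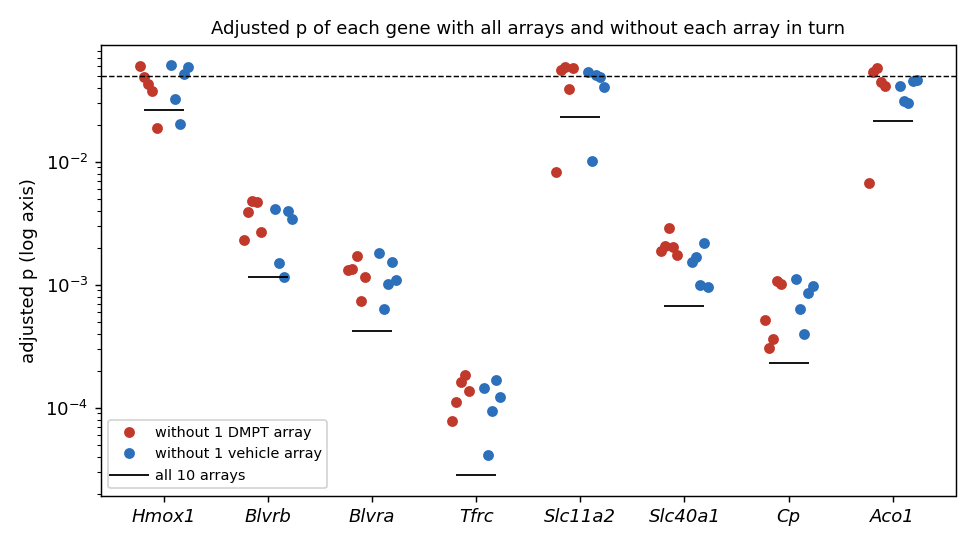
Adjusted p from limma (vertical log axis) of each of the 8 genes with all 10 arrays (black bar) and without each array in turn (red, without 1 DMPT array; blue, without 1 vehicle array). The dashed line is the threshold of 0.05. Blvrb, Blvra, Tfrc, Slc40a1 and Cp lie below it in every omission, and Hmox1, Slc11a2 and Aco1 cross it in some.

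Beyond the 10 genes, 56 other genes of heme and iron metabolism were listed, and 47 of them were measured. Of these, 8 were higher, 3 were lower and 36 did not pass, against 7.13% and 6.77% of all genes higher and lower. The median log2 difference of the 47 was 0.071. The count of lower genes was 1 without DMPT replicate 1, 3 or 5, without vehicle replicate 4 or 5, or with the RNA quality ratio in the fit. It was 5 when the mean of all probe sets represented a gene.

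In heme synthesis, 2 of 8 measured genes were higher and 0 lower (2 lower at an unadjusted p below 0.05 in limma). Fech, the ferrochelatase that inserts iron into the porphyrin ring, had log2 values of 12.37, 12.58, 12.61, 12.50 and 12.38 in DMPT replicates 1 to 5, against 11.23, 11.70, 11.51, 11.27 and 11.25 in vehicle replicates 1 to 5. The groups were far apart, with a difference of 1.10 ± 0.11 log2 units (limma, adjusted p = 0.000126). Urod, an earlier enzyme of the porphyrin pathway, rose by 0.35 ± 0.077 (adjusted p = 0.0128). Alas1, the rate-limiting first enzyme in cells other than red cell precursors, had a difference of -0.26 with an interval from -0.47 to -0.045 and did not pass after adjustment (adjusted p = 0.120). Of the alternatives it was lower in 1, the trended robust prior (adjusted p = 0.0420). Alas2, its counterpart in red cell precursors, had a difference of -0.018, did not pass, and changed sign under 6 of the 10 omissions and 3 of the 9 other alternatives.

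In heme transport and scavenging, 3 of 8 were higher and 2 lower. Slc48a1, the transporter that moves heme out of endosomes and lysosomes, ranged from 10.81 to 11.15 after DMPT, against 10.03 to 10.46 with vehicle, and rose by 0.67 ± 0.10 (limma, adjusted p = 0.00190). Pgrmc1, a heme-binding membrane protein, rose by 0.62 ± 0.095 (adjusted p = 0.00189), and the heme exporter gene Flvcr1 by 0.51 ± 0.13 (adjusted p = 0.0259). The plasma scavenger genes Hp, haptoglobin, and Hpx, hemopexin, fell by 0.61 ± 0.17 and 0.63 ± 0.16 (adjusted p = 0.0443 and 0.0290). Hpx was dim, with means of 5.03 after DMPT and 5.67 with vehicle, under every lower quartile of an array, which lay between 6.37 and 6.51. The call of Flvcr1 was lost without any of DMPT replicates 1 to 4 or vehicle replicates 3 to 5. That of Hp was lost without DMPT replicate 1, 3 or 5 or any vehicle array except replicate 3, with array weights, with the replicate block (adjusted p = 0.0650) and with the RNA quality ratio. That of Hpx was lost without DMPT replicate 1, 3, 4 or 5 or vehicle replicate 4 or 5, and with the RNA quality ratio. Over the omissions the differences ran from 0.45 to 0.58 for Flvcr1, from -0.71 to -0.48 for Hp and from -0.76 to -0.55 for Hpx.

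Bach1 encodes the heme-sensing repressor of Hmox1. It ranged from 9.37 to 9.76 after DMPT, against 8.58 to 9.24 with vehicle, so that every DMPT array was above every vehicle array. The difference was 0.67 ± 0.14 log2 units (limma, adjusted p = 0.0121), and with the RNA quality ratio in the fit it was 0.49 and the call was lost (adjusted p = 0.0633).

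Among the iron carriers, reductases and importers, 1 of 8 was higher and 1 lower. At an unadjusted p below 0.05 in limma, 1 was higher and 2 were lower, Steap4 and Cybrd1. Cybrd1 had a difference of -0.60 ± 0.18 and did not pass after adjustment (limma, adjusted p = 0.0564). Steap4, a metalloreductase that reduces iron and copper, had log2 values of 10.22, 11.34, 10.37, 11.09 and 11.17 in DMPT replicates 1 to 5, against 12.45, 11.85, 11.79, 11.86 and 12.05 in vehicle replicates 1 to 5. Every DMPT array was below every vehicle array, and Steap4 fell by 1.16 ± 0.22 (limma, adjusted p = 0.00688). Slc39a8, which carries zinc, manganese and iron into cells, rose by 1.47 ± 0.40 (adjusted p = 0.0347). Its mean with vehicle was 5.93, below the lower quartiles of the arrays, and its vehicle arrays ranged from 4.76 to 6.79, so the size of the rise is uncertain. Its call was lost without DMPT replicate 2, 3 or 4 or vehicle replicate 2, 4 or 5, with differences from 1.18 to 1.68 over the omissions.

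By the brightest probe set, the genes of iron sensing and of ferritin turnover did not pass: 0 of 7 in the first group, with Ireb2 and Fbxl5 among them, and 0 of 3 in the second. At an unadjusted p below 0.05 in limma, 1 gene of each group was higher and 0 were lower. Ncoa4, the receptor that sends ferritin to lysosomes, had a difference of 0.20 (95% interval from 0.0015 to 0.40, adjusted p = 0.198). Pcbp2, an RNA-binding protein that also hands iron to ferritin, differed between its probe sets. The brightest, at means of 12.12 after DMPT and 12.11 with vehicle, had a difference of 0.0096, and another had -0.0019. The dimmest had log2 values of 7.85, 8.00, 8.19, 7.89 and 7.80 in DMPT replicates 1 to 5, against 6.37, 7.14, 6.88, 6.56 and 5.90 in vehicle replicates 1 to 5. Every DMPT array was above every vehicle array on that probe set, which rose by 1.38 ± 0.20 log2 units (limma, adjusted p = 0.00126) and kept its call in each omission and alternative run on it. Of 10 genes of mitochondrial iron and iron-sulfur cluster assembly, the cochaperone gene Hscb was higher and 0 were lower. At an unadjusted p below 0.05 in limma, 2 were higher, Hscb and the transporter gene Abcb10, and 0 lower. Hscb ranged from 10.33 to 10.73 after DMPT, against 9.83 to 10.03 with vehicle, and rose by 0.51 ± 0.095 (adjusted p = 0.00576). The other 9 had differences that did not pass on the brightest probe set. For Isca1, a scaffold gene of iron-sulfur assembly, that difference was -0.13, while its second probe set ranged from 10.20 to 10.52 after DMPT, against 10.53 to 10.90 with vehicle, and fell by 0.36 ± 0.096 (limma, adjusted p = 0.0339). That call was lost in 7 of the 10 omissions, those of DMPT replicates 1 to 4 and vehicle replicates 3 to 5, with the replicate block (adjusted p = 0.0515) and with the arrays centred on their medians. Over the 12 further probe sets of the 47 genes, those of Pcbp2 and Isca1 were the 1 higher and the 1 lower.

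**Figure D4:**
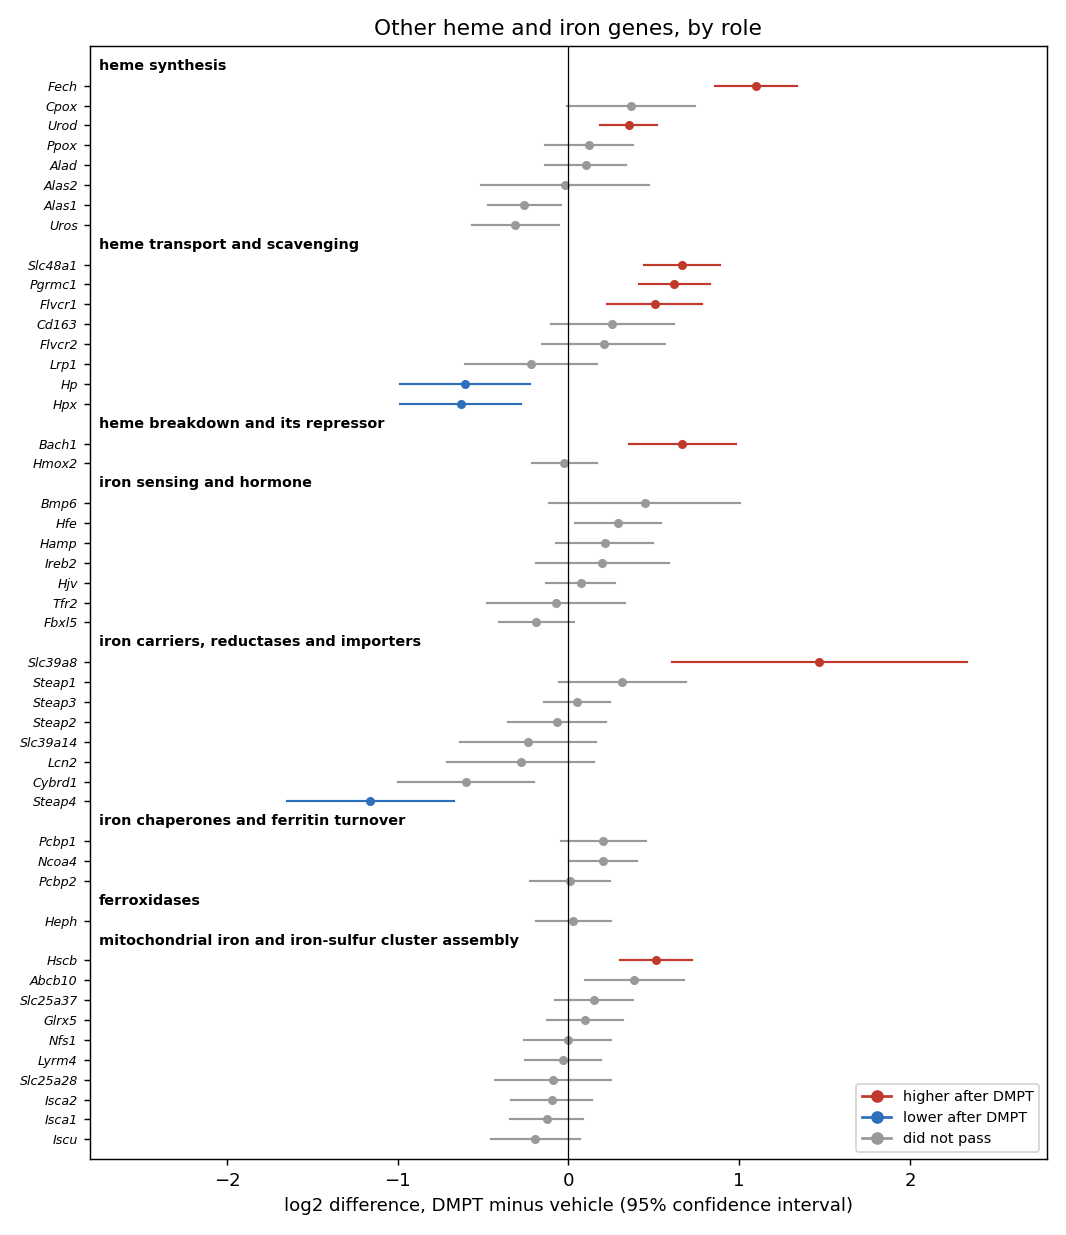
Log2 difference, DMPT minus vehicle (horizontal axis), with 95% confidence intervals for the 47 other measured heme and iron genes, grouped by role. Red marks genes that were higher, blue genes that were lower, and grey genes that did not pass. Most intervals span 0, and Fech, Slc39a8 and Steap4 stand farthest from it among the genes that passed.

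The genes with the most similar profiles were sought over the 10 arrays, as the root mean square distance between log2 values less the vehicle mean, among the other 14216 genes. For Tfrc these were Hebp1, Bcl2l11 and Tnfrsf12a, at distances of 0.0862, 0.158 and 0.163 log2 units. This distance keeps the shift after DMPT, so genes with a like difference come out near. The differences were 1.41 ± 0.11 for Hebp1, 1.40 ± 0.11 for Bcl2l11 and 1.41 ± 0.11 for Tnfrsf12a, against 1.39 for Tfrc. Hebp1 encodes a small protein that binds heme and porphyrins. For Hmox1 they were Ankrd53, Phlda2 and Ercc6l, at 0.236, 0.279 and 0.290. For Cp they were Kcnk2, Pigr and Chad, at 0.304, 0.327 and 0.369. Pigr encodes the polymeric immunoglobulin receptor of secretory epithelium. Any link of these genes with Tfrc, Hmox1 or Cp beyond a like difference was not tested.

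Markers of cell types and states were measured beside these genes. Of the measured genes, 3 stand in more than 1 list: Lyz2 among macrophage and gland markers, Alas2 among heme synthesis and red blood cell genes, and Cd163 among heme scavenging and macrophage genes. The 7 measured markers of nasal epithelium had mean log2 levels of 13.5 to 13.6 after DMPT, against 13.2 to 13.4 with vehicle, where array medians lay between 8.21 and 8.35. Of these 7, 2 keratin genes were higher and 0 lower: Krt5, of basal cells, rose by 0.60 ± 0.11 (limma, adjusted p = 0.00537) and Krt8, of simple epithelia, by 0.44 ± 0.088 (adjusted p = 0.00831). Both kept their call without each array in turn. Macrophages recycle heme iron and express Hmox1 and Slc40a1. Of 10 measured macrophage markers, 6 were higher and 1, Lyz2, lower, and their mean level ranged from 9.43 to 9.73 after DMPT, against 9.09 to 9.26 with vehicle. C1qc rose by 0.61 ± 0.11 and Cd14 by 0.43 ± 0.076. Cd14 was bright, at means of 12.28 after DMPT and 11.85 with vehicle. The higher count was 4 or 5 without any single array, and among the omissions Lyz2 kept its call only without vehicle replicate 2. The call of Lyz2 was also lost with the replicate block (adjusted p = 0.0874), with the RNA quality ratio and with the arrays centred on their medians. The hemoglobin scavenger receptor gene Cd163, a defining macrophage gene, did not pass. It was near the lower quartiles of the arrays, at 6.70 after DMPT and 6.44 with vehicle. Csf1r and Adgre1 did not pass either, with differences of 0.16 and -0.050 (limma, adjusted p = 0.467 and 0.880). Of 7 red blood cell markers, 0 passed (limma, 0 at an unadjusted p below 0.05). Their mean level ranged from 8.13 to 8.84 after DMPT, against 8.06 to 8.49 with vehicle. The anion exchanger gene Slc4a1 differed by 0.37 ± 0.24 and the membrane skeleton gene Epb42 by -0.10 ± 0.11. The globin gene Hbb lay between 13.43 and 14.01 after DMPT, against 13.62 to 14.03 in 4 vehicle arrays and 10.95 in vehicle replicate 2. Its difference was 0.40 ± 0.49 with all arrays and -0.17 without vehicle replicate 2, and neither passed.

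Beside the fall of Cp, 5 of 10 gland and secretory markers were lower, Lyz2 among them, and 0 were higher. At an unadjusted p below 0.05 in limma, 1 was higher. The mean level of the 10 ranged from 9.36 to 9.98 after DMPT, against 9.74 to 10.41 with vehicle. Pigr fell by 1.79 ± 0.15 and Tff3 by 2.20 ± 0.27. Without DMPT replicate 5, 3 were lower and 1 was higher. Of 7 olfactory sustentacular and Bowman gland markers, 4 were lower and 0 higher (1 higher at an unadjusted p below 0.05 in limma, and 1 after adjustment without vehicle replicate 2), and the ranges were 8.17 to 8.71 after DMPT, against 9.03 to 9.39 with vehicle. Ermn fell by 2.38 ± 0.27 and Sec14l3 by 1.46 ± 0.18. All 3 measured markers of multiciliated cells were lower, among them Dnai1 by 1.45 ± 0.39 and Tekt1 by 1.21 ± 0.34, but the number lower was 1 without vehicle replicate 1 and 0 without DMPT replicate 3, 4 or 5 or vehicle replicate 2, 4 or 5.

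Beside the rise of Tfrc, which dividing cells express strongly, 11 of 12 proliferation markers were higher and 0 lower (1 lower at an unadjusted p below 0.05 in limma, and 1 after adjustment without DMPT replicate 1 or vehicle replicate 3). Their mean level ranged from 10.23 to 10.43 after DMPT, against 9.02 to 9.92 with vehicle. Plk1 rose by 1.14 ± 0.13 and Mki67 by 0.88 ± 0.099. Beside Hmox1, Slc40a1 and Blvrb, all 11 measured NRF2 targets were higher, with mean levels from 12.96 to 13.30 after DMPT, against 11.61 to 11.84 with vehicle. Slc7a11 rose by 4.12 ± 0.19 and Gclm by 1.84 ± 0.12. Of 6 endothelial markers, 5 were higher, among them Pecam1 by 1.15 ± 0.17 and Esam by 1.19 ± 0.19, and the number was 3 without DMPT replicate 1, 3 or 4 or vehicle replicate 4 or 5. All 6 lay below the median level of the probe sets. The part of these cell types and states in the differences of the heme and iron genes was not tested.

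**Figure D5:**
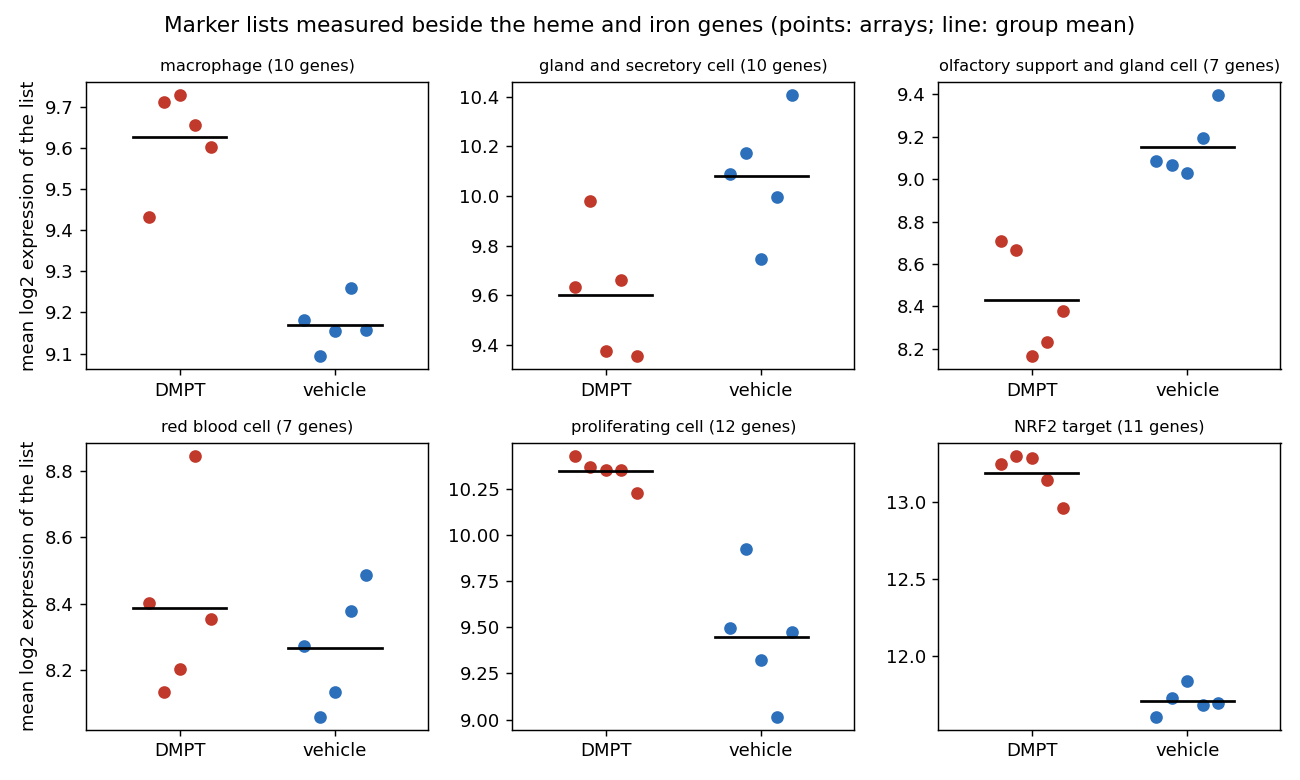
Mean log2 level of 6 marker lists (vertical axes, each panel with its own range) in the 5 DMPT and 5 vehicle arrays, with a line at each group mean. The macrophage, proliferation and NRF2 lists lie higher after DMPT without overlap, the olfactory list lies lower without overlap, and the gland and red blood cell lists overlap.

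The arrays as a whole were similar, with correlations between pairs from 0.959 to 0.992 over all probe sets. Vehicle replicate 2 stood apart, with a mean correlation of 0.975 with the other vehicle arrays, and leaving it out kept the calls of all 8 genes. The RNA quality ratio, the 3′ minus 5′ log2 difference of the control probe sets, was 1.10 ± 0.19 after DMPT and 1.28 ± 0.13 with vehicle (SD, n = 5 each; two-sided exact permutation p = 0.143). With that ratio as a covariate, all 8 genes kept their call.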

How the data were processed

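RNA of laser-captured nasal transitional epithelium was measured on 10 Affymetrix-type rat arrays, 5 per group. The authors deposited 1 log2 value per probe set and array, computed by RMA per the submitters' processing notes; no RMA version, probe filter or genome build is named there. RMA equalises array distributions, so differences are relative to the bulk of probe sets. Precision is limited by the number of arrays, which have no read depth.

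Of 31099 probe sets, 57 controls were set aside. Of the rest, 20826 had 1 gene symbol in the platform annotation, 436 several and 9780 none. Entrez identifiers of 20758 were found in RefSeq (GRCr8), which changed 0 symbols and gave the coordinates and promoter sequences; no coordinate comes from the array files. DMPT was compared with vehicle in limma 3.58.1 (R 4.3.3; lmFit, eBayes, treatment alone, two-sided) on all 31042 probe sets, without a filter, and the fit was tested on simulated data. The ORIOGEN software of the series' design text was not run.

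The genes and lists were chosen with earlier results of these data known. Named were the 10 genes, every other heme or iron gene that passed, 6 preset genes (Hmox2, Ireb2, Fbxl5, Ncoa4, Bach1, Slc48a1), the 3 nearest profiles of Tfrc, Hmox1 and Cp, and the 2 members of each marker list with the smallest p. Alas1, Alas2, Heph, Cd163, Hbb, Lyz2, Abcb10 and Cybrd1 were added after their values were seen. So were Csf1r, Adgre1, Cyp2a3, Umod, Cyp1a2, Ugt2a1, the further probe sets of Pcbp2 and Isca1, and the probe set pairs. The alternatives left out each array in turn, added the replicate number as a block, array weights or the RNA quality ratio, dropped the dimmest 25% of probe sets, centred or quantile normalised the arrays again, used a trended robust prior, or took 1 probe set or the mean of all per gene.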

Additional observations from a re-analysis of the deposited data

Results flagged for a closer look

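Of 112 groups of 5 arrays examined for a single array far from the others, 6 held one; chance gives about 1 in 20. For the second Slc11a2 probe set, vehicle replicate 2 stood at 8.74 on the log2 scale, where the other vehicle arrays lay between 9.17 and 9.34. The same array had 9.11 for Ireb2, where the others lay between 9.84 and 10.12. DMPT replicate 5 had 9.54 for Flvcr1, where the other DMPT arrays lay between 9.84 and 9.96. Vehicle replicate 2 had 10.95 for Hbb, where the other vehicle arrays lay between 13.62 and 14.03. Vehicle replicate 3 had 8.63 for Alas2, where the others lay between 9.32 and 9.55. Vehicle replicate 1 had 12.86 for Krt5, where the others lay between 12.45 and 12.55. Without these arrays in turn, the second Slc11a2 probe set, Ireb2, Hbb and Alas2 still did not pass, Hbb changed sign to -0.17, and Flvcr1 and Krt5 kept their calls.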

How the results depend on the processing

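Over the 8 genes, 152 fits under alternatives gave 141 with the same call and direction, 11 in which the call was lost and 0 reversals. All 11 were omissions of 1 array; the other 9 alternatives, among them the replicate block, changed no call of the 8. The mean of all probe sets per gene gave 0.42 for Slc11a2, against 0.65. Over the omissions the differences ran from 0.77 to 1.08 for Hmox1, from 0.58 to 0.77 for Slc11a2, from 0.41 to 0.57 for Aco1, from -1.20 to -1.05 for Blvra, from 0.68 to 0.79 for Blvrb, from 1.35 to 1.45 for Tfrc, from 1.18 to 1.39 for Slc40a1 and from -2.27 to -1.95 for Cp. The number of the 8 genes that were higher ran from 4 to 6 and the number lower was 2. The count of lower probe sets over the whole array (1783) ran from 1022 to 1886 over the omissions, with 1022 without DMPT replicate 3 and 1147 without DMPT replicate 4, and was 951 with the RNA quality ratio. Higher probe sets (1668) ran from 1137 to 2130. Lower genes among the 47 other heme and iron genes ran from 1 to 4, were 1 with the RNA quality ratio and 5 with the mean of all probe sets per gene; higher ones ran from 6 to 8. With the RNA quality ratio, multiciliated markers lower numbered 0, gland markers lower 3 and endothelial markers higher 3. Hmox2, which ran from -0.075 to 0.0081 over the omissions, changed sign at 0.0081 without vehicle replicate 1 and at 0.015 with arrays centred on medians, and Ireb2 at -0.065 with the RNA quality ratio. Alas2 ran from -0.20 to 0.070 over the omissions and was 0.099 with array weights, 0.021 with centred and 0.015 with requantiled arrays. Heph ran from -0.019 to 0.076. Hbb ran from -0.17 to 0.60, with -0.17 without vehicle replicate 2, while array weights gave it -0.0037 and the RNA quality ratio -0.21. The causes were not tested.

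Same-numbered DMPT and vehicle arrays had deviations correlating at between -0.067 and 0.23, and 2 of 5 arrays correlated best with their own number, so the numbers were not taken to pair the animals. Each number holds a DMPT and a vehicle array, so the replicate block cannot change a difference, only its p. The differences were therefore those of the main fit: 0.94 for Hmox1, 0.73 for Blvrb, -1.13 for Blvra, 1.39 for Tfrc, 0.65 for Slc11a2, 1.31 for Slc40a1, -2.14 for Cp and 0.48 for Aco1. With the block, 1545 probe sets were higher and 1825 lower. Centring moved the median difference of all probe sets by 0.040 log2 units.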
